A study of Mus musculus with 4 samples.

Results

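The BCL-2 family genes followed here are Bcl2, Bcl2l1, Bcl2l2, Mcl1, Bak1, Bcl2l11, Bid, Bad, Bik and Bmf. Every probe set that the array's annotation of 2016 pairs with 1 of these symbols alone was taken, which gave 37 probe sets for 10 genes, among 18193 genes with a symbol of their own and 45037 probe sets tested. RNA came from subclones of the mouse hybridoma 36-65, a fusion of a B cell and a myeloma cell that grows without limit and secretes antibody. Subclones were sorted by the labels into those that switched antibody isotype at low frequency in culture and those that did so spontaneously at high frequency. Subclones L25 and L27 are low switching replicates 1 and 2, and subclones H23 and H27 are high switching replicates 1 and 2. All 4 were grown with 10% fetal calf serum and other supplements, no treatment is named, and 1 array was hybridized for each. Each subclone is a clone of 1 line, the labels leave unsaid whether the subclones of a class arose separately, and p-values reflect only how these 4 arrays vary. In bulk RNA, fewer cells with a transcript and less of it per cell cannot be told apart.

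BCL-2 family proteins decide whether the outer membrane of mitochondria stays intact. Death members of the BH3-only type are switched on by stress and either activate the pore-forming proteins BAK and BAX or occupy the survival members that would hold them back, and an opened membrane releases cytochrome c, which starts the caspases. Plasma cells and the myeloma cells related to them are known to lean on the survival protein MCL-1, and their BIM, made from Bcl2l11, is held in check by it. These proteins are governed to a large extent by cleavage, phosphorylation and turnover, which an RNA measurement does not show.

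Median intensities of the 4 arrays lay between 38.1 and 39.3, and precision is limited by there being 2 arrays a class. The level of the spiked hybridization controls crossed the classes, at a mean log2 of 11.32 for low switching replicate 1 and 11.23 for high switching replicate 2, but of 10.72 and 10.79 for the remaining arrays. Plasma cell markers were bright, with 0 of 8 measured genes below the median probe set on every array. Of the 8, 0 rose, Xbp1 and Tnfrsf17 fell and 6 were not called, with a list median of -0.01 and Prdm1 at 0.74 ± 0.20 without passing. Of all genes, 2.04% rose and 2.78% fell. Summed over the genes, plasma cell markers read 72065 to 76323 in low and 66930 to 71914 in high switching subclones, and B cell markers 5167 to 5276 and 6118 to 7064. The sums were 521 to 531 and 453 to 498 for 7 T cell markers, 552 to 557 and 403 to 418 for 8 myeloid markers, and 220 to 235 and 269 to 280 for 8 fibroblast markers. A sum is weighted to the brightest genes of a list. List medians of the difference were 0.002 for B cell, 0.02 for T cell, 0.06 for myeloid and 0.05 for fibroblast markers. Of the 7 measured B cell markers 4 lay below the median probe set on every array. Among the B cell, T cell, myeloid and fibroblast markers Cd79b and Lum rose and Itgam fell, against the same 2.04% and 2.78% of all genes. The part of such differences in the values below was not tested.

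Setting high against low switching subclones addresses which RNAs distinguish them. Among the family, Bcl2l1, which encodes the survival protein BCL-XL, fell in high switching subclones on 3 of its 4 probe sets, and no other of the 10 genes passed the test. The death genes Bid and Bik read higher in both high switching subclones on every probe set without passing, and Mcl1 and Bcl2l11, which had probe sets near the top of the array's range, differed by at most 0.25. Differences are high minus low switching on the log2 scale, with the moderated standard error (SE) of limma and p-values adjusted by Benjamini-Hochberg over all 45037 probe sets, and a probe set was called at an adjusted p under 0.05. By that rule 0 of 37 probe sets were higher and 3 were lower, where 1.5% of all probe sets were called higher and 2.1% lower. At an unadjusted p under 0.05 there were 10 of 37, against 18.6% of all probe sets. These were 3 probe sets each of Bcl2l1, Bid and Bik and 1 of Bcl2l2, so probe sets of the same gene repeat in the count. A plainer count asks that both high switching arrays lie on one side of both low switching arrays. This held in the higher direction for 8 probe sets, 25.1% being the share over all probe sets, and in the lower direction for 5, against 22.2%.

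**Figure D1:**
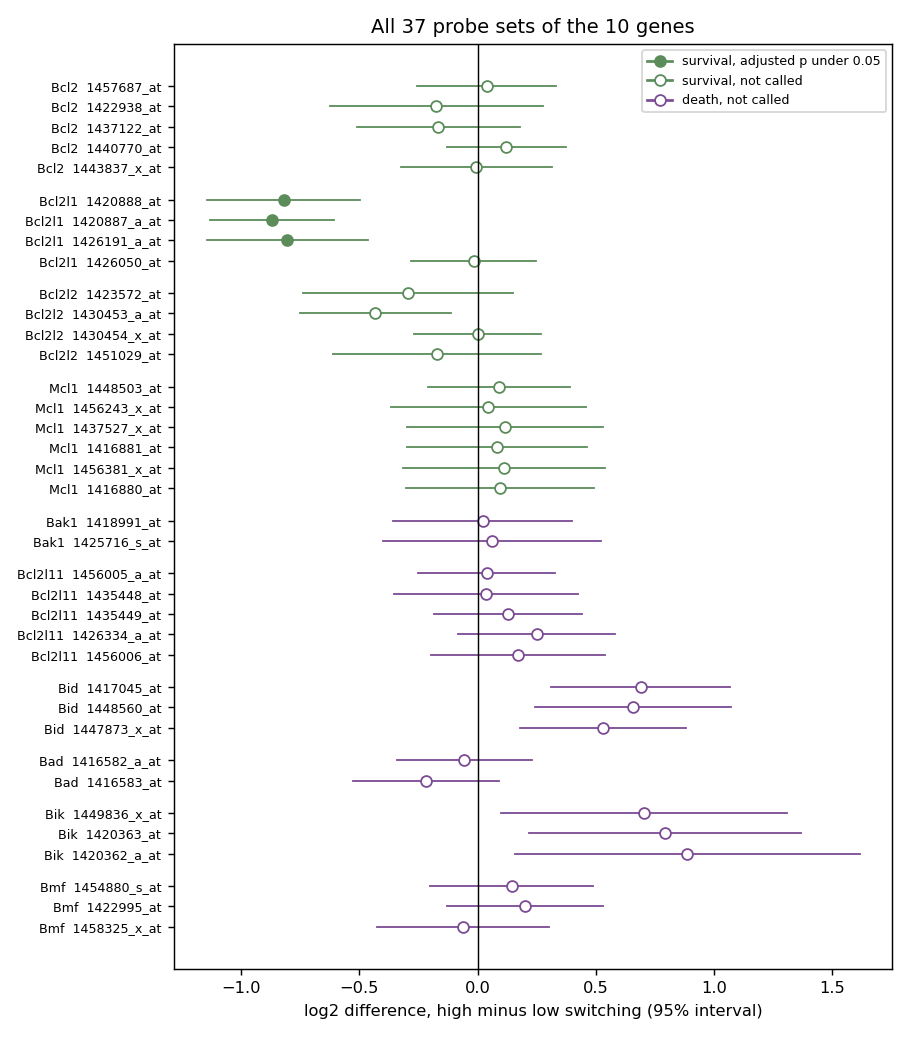
Log2 difference, high minus low switching, with its 95% interval for all 37 probe sets of the 10 genes (y axis, gene and probe set name), survival members in green and death members in purple, filled where the adjusted p was under 0.05. The 3 filled points belong to Bcl2l1, between -0.87 and -0.80, and the open points of Bid and Bik lie between 0.53 and 0.89.

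Of the survival genes, Bcl2l1 had log2 intensities of 10.15 and 10.02 in low switching replicates 1 and 2 and of 9.13 and 9.39 in high switching replicates 1 and 2, on its brightest probe set (1420888_at). Both high switching arrays lay below both low switching arrays, and the gap between classes was wider than the gap inside either. The class means were 10.08 ± 0.09 (SD, n = 2) and 9.26 ± 0.18, and the difference was -0.82 ± 0.13 (SE), a level 1.77-fold lower in high switching subclones, with a 95% interval of -1.14 to -0.50 and a limma adjusted p of 0.0337. Probe set 1420887_a_at read 9.23 and 9.13 against 8.34 and 8.28, a difference of -0.87 ± 0.11 (limma adjusted p = 0.0179). Probe set 1426191_a_at read 8.53 and 8.22 against 7.63 and 7.52, a difference of -0.80 ± 0.14 (limma adjusted p = 0.0404). These probe sets gave the same order of classes on every array. The fourth, 1426050_at, read between 4.17 and 4.27 on all arrays, below the median probe set of each, and differed by -0.02 ± 0.11. Bcl2l1 also gives a short splice form that favours death, and the files do not say which form each probe set reads. Levels of different probe sets are not comparable with each other.

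The Bcl2l1 call is close to the limit of what 4 arrays can hold. When any single array was left out, 0 of 37 probe sets were called lower. For 1420888_at the difference then ranged from -0.95 to -0.69 and its limma adjusted p from 0.0571 to 0.167. A block for the hybridization control level pairs 1 array of each class, so it cannot change the difference. It bears on the error, and it leaves fewer degrees of freedom to estimate that error. With it the SE of 1420888_at was smaller, 0.10 against 0.13, yet the limma adjusted p was 0.0955. Calls over all probe sets went from 674 higher and 944 lower to 58 and 94.

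**Figure D2:**
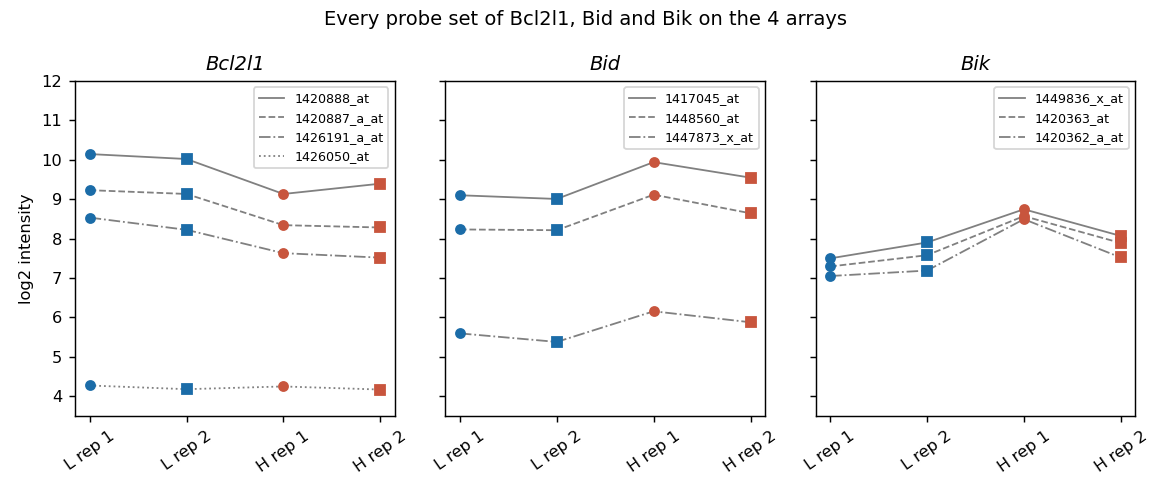
Log2 intensity (y axis) of every probe set of Bcl2l1, Bid and Bik on the 2 low switching arrays (blue, L) and the 2 high switching arrays (red, H), with a line joining the values of 1 probe set for identification only. Bcl2l1 is lower on both red arrays for the 3 brighter probe sets and flat at 4.17 to 4.27 for the dim one, while Bid and Bik are highest on high switching replicate 1.

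Bcl2l1 lies on chromosome 2, and most genes around it did not share its direction. The 40 nearest measured genes, 20 on each side in the order of the GRCm38.p6 gene table, had a median difference of 0.11, and 31 of them were positive. Among these 41 genes, Bcl2l1 included, it had the second lowest value. The lowest was that of Id1, which blocks E-protein factors, located 2 genes away, which fell by 1.55 on the log2 scale. Between them, Cox4i2, a subunit of a respiratory chain complex, had a difference of -0.46 ± 0.20 and did not pass (limma adjusted p = 0.294). On the other side, Tpx2, a spindle protein, differed by 0.48 ± 0.12 (limma adjusted p = 0.0982). Srxn1, Trib3 and Tspyl3, located within the same stretch, rose.

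**Figure D3:**
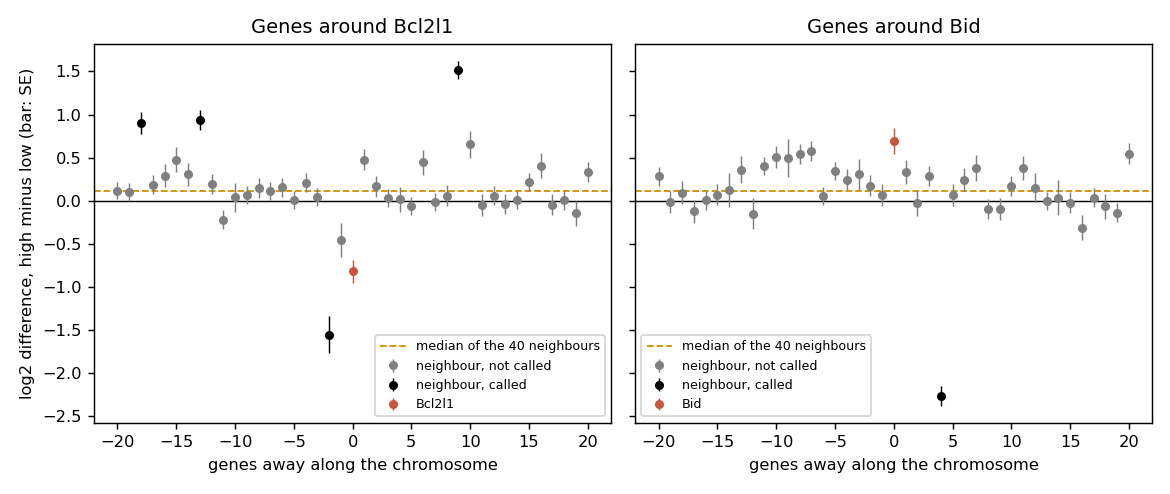
Log2 difference, high minus low switching (y axis, bars show the SE), of Bcl2l1 and Bid (red) and the 20 measured genes on each side of each in chromosome order (x axis, in genes), with called genes in black. Bcl2l1 and Id1 stand below their neighbours, whose median is 0.11 (dashed line). Around Bid the median is also 0.11, and Usp18 is far below.

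The other survival genes did not pass. Mcl1, with 6 probe sets near the top of the array's range, read 13.49 and 13.64 in low and 13.57 and 13.74 in high switching subclones on 1448503_at, a probe set with 255 of 45037 brighter. The classes overlapped, and the difference was 0.09 ± 0.12. Over the 6 probe sets the differences ran from 0.05 to 0.11 and their 95% intervals together from -0.37 to 0.54. Low switching replicate 1 was the lowest array on all 6. The low switching arrays differed from each other by 0.15 to 0.43, more than the classes did. At such brightness intensity may level off, which would shrink differences, and this was not tested.

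Bcl2, the founding survival gene, was dim. Its brightest probe set, 1457687_at, read 6.54 and 6.61 in low and 6.72 and 6.51 in high switching subclones, with a difference of 0.04 ± 0.12. Of its 5 probe sets 3 lay below the median probe set on every array, where intensity need not follow the amount of transcript. Their differences ran from -0.17 to 0.12. On 1440770_at, among the dimmest, both high switching arrays (3.84 and 3.85) lay above both low switching arrays (3.72 and 3.74), a difference of 0.12 ± 0.10.

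Bcl2l2, which encodes the survival protein BCL-w, had differences from -0.43 to 0.00 on 4 probe sets. On its brightest, 1423572_at, it read 7.30 and 7.76 in low and 7.11 and 7.36 in high switching subclones, and the classes overlapped (-0.29 ± 0.18). On 1430453_a_at it read 6.50 and 6.22 against 5.95 and 5.91, without overlap, and the difference of -0.43 ± 0.13 had a limma adjusted p of 0.149. The other 2 probe sets lay below the median probe set on every array.

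**Figure D4:**
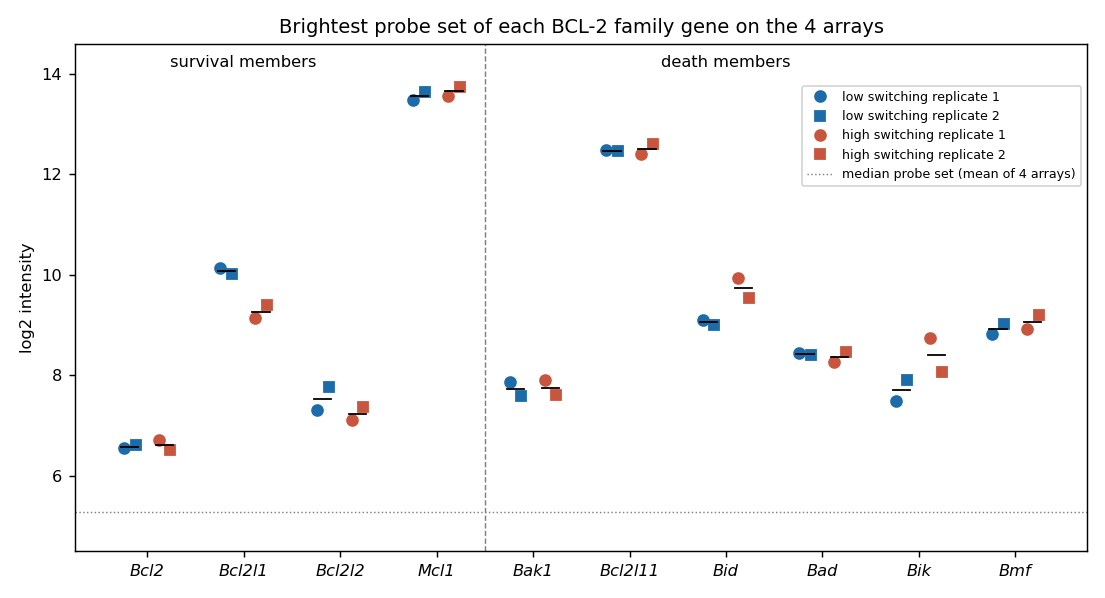
Log2 intensity (y axis) of the brightest probe set of each of the 10 genes (x axis) on the 4 arrays, low switching in blue and high switching in red, with bars at the class means and a dotted line at the median probe set. The classes separate for Bcl2l1, Bid and Bik and overlap for the other 7 genes, and heights are not comparable between genes.

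Of the death genes, Bid encodes a BH3-only protein that caspase-8 cleaves, which links death receptors to mitochondria. It read 9.10 and 9.01 in low and 9.94 and 9.55 in high switching subclones on 1417045_at. Both high switching arrays were above both low switching arrays, as on the other 2 probe sets of the gene, and high switching replicate 1 was the highest on all 3. The class means of 9.05 ± 0.07 (SD, n = 2) and 9.74 ± 0.28 gave a difference of 0.69 ± 0.16 (SE), 1.61-fold, with a 95% interval of 0.31 to 1.07 and a limma adjusted p of 0.0755, which missed the threshold. The other probe sets gave 0.66 ± 0.17 (1448560_at, 8.23 and 8.21 against 9.11 and 8.64) and 0.53 ± 0.14 (1447873_x_at, 5.59 and 5.38 against 6.15 and 5.87). Of the 40 genes around it on chromosome 6 the median was 0.11, 28 were positive, and only Usp18 passed there, as lower. The 15 of these neighbours with a mean log2 of at least 7 had a median of 0.24. Bid had the highest value of the stretch, and whether it shares a difference of the region was not tested. With cyclic loess normalization 1417045_at passed (0.74, limma adjusted p = 0.0495), and without high switching replicate 1 its difference was 0.49.

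Bik, whose BH3-only protein sits largely at the endoplasmic reticulum, had the widest gap between high switching subclones of the 10 genes. On 1420362_a_at it read 7.05 and 7.19 in low and 8.49 and 7.52 in high switching subclones, a difference of 0.89 ± 0.30 (limma adjusted p = 0.187). On 1420363_at it read 7.29 and 7.58 against 8.57 and 7.89 (0.79 ± 0.24), and on 1449836_x_at 7.50 and 7.90 against 8.74 and 8.07 (0.71 ± 0.25). The classes did not overlap on any of the 3, and high switching replicate 1 stood highest on each. The high switching arrays differed from each other by 0.68 to 0.97, and a gap of 0.68 or more between these arrays was found for 1.34% of all probe sets. Without high switching replicate 2 the difference of 1420362_a_at was 1.37 (limma adjusted p = 0.024), but the high switching class is then 1 array with no spread of its own, assumed to vary like the low switching arrays. With high switching replicate 1 left out instead it was 0.40 (limma adjusted p = 0.277). The size of the Bik difference thus turns on which high switching array is read. With 1 array for each subclone, a gap between subclones and one between arrays cannot be told apart. In each class the array with the lower hybridization controls read higher on all 3 probe sets, and whether the 2 are linked was not tested.

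Bcl2l11, whose product BIM binds every survival member and is known as a main trigger of death in lymphocytes, was bright on all 5 probe sets. It read 12.49 and 12.46 in low and 12.41 and 12.62 in high switching subclones on 1456005_a_at, with a difference of 0.04 ± 0.12. All 5 differences were positive, from 0.03 to 0.25, and none passed. Their 95% intervals together ran from -0.36 to 0.58. High switching replicate 2 was the highest array on all 5, and the classes separated on 1426334_a_at alone, which read 9.83 and 9.55 against 9.88 and 10.01 (0.25 ± 0.14, limma adjusted p = 0.41).

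Bak1, the pore-forming member, read 7.87 and 7.59 in low and 7.90 and 7.60 in high switching subclones on 1418991_at. The difference of 0.02 ± 0.16 was far smaller than the gap inside either class, 0.28 and 0.29. Its second probe set gave 0.06 ± 0.19. Bad, whose protein is kept inactive by phosphorylation and 14-3-3 proteins, read 8.44 and 8.41 against 8.27 and 8.46 on 1416582_a_at (-0.06 ± 0.12). On 1416583_at it read 7.71 and 7.46 against 7.33 and 7.39, without overlap, a difference of -0.22 ± 0.13 (limma adjusted p = 0.444). Bmf, whose protein is tethered to motor complexes through a dynein light chain, read 8.82 and 9.03 against 8.93 and 9.21 on 1454880_s_at. Its difference was 0.14 ± 0.14, and its other probe sets gave 0.20 and -0.06.

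Set side by side, the survival genes had a median difference of -0.13 over 4 genes and the death genes of 0.09 over 6 genes, each gene read on its brightest probe set, while all 18193 genes had a median of 0.01. Positive differences were found for 8 of 19 survival probe sets and 15 of 18 death probe sets, counts in which probe sets of the same gene repeat. By gene they were found for 2 of 4 survival genes and 5 of 6 death genes, and for 9442 of all 18193 genes. These are descriptions without a test. The survival median was 0.0037 with low switching replicate 2 left out and -0.26 with replicate 1 of that class left out, so its direction is not settled. The death median was 0.21 without high switching replicate 1. On these probe sets Bid and Bik were the 2 genes with both high switching arrays above both low switching arrays, which 26.5% of all genes showed, and Bcl2l1 the 1 gene with both below, which 24.9% showed.

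**Figure D5:**
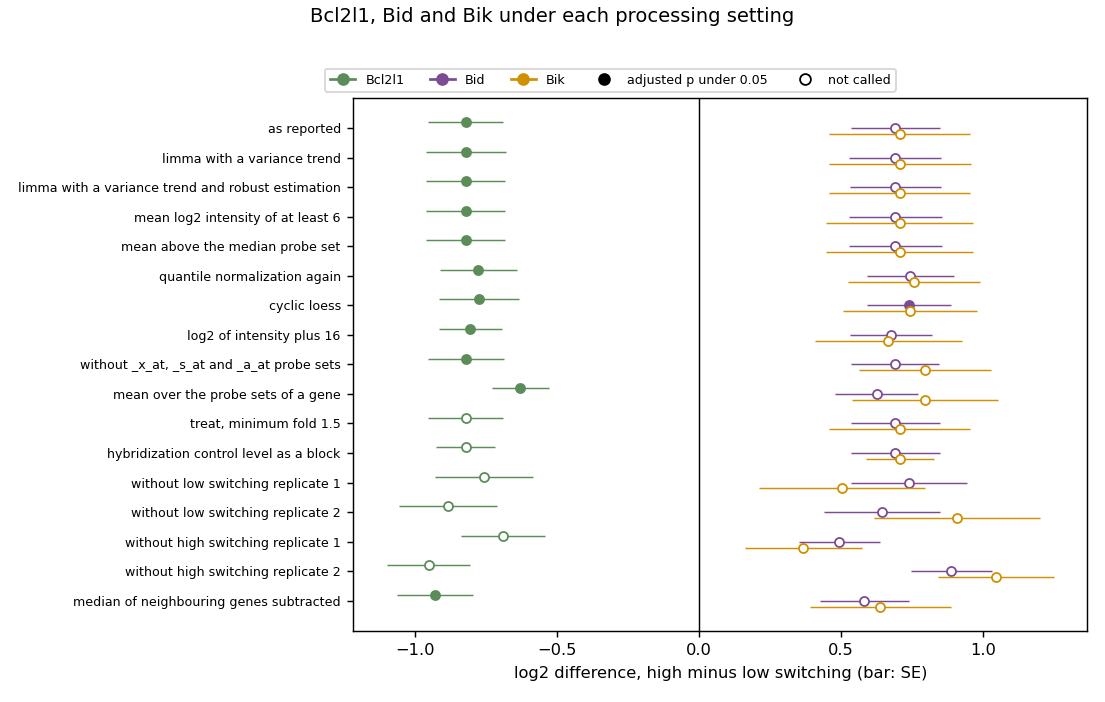
Log2 difference, high minus low switching (x axis, bars show the SE), of the probe set that stands for Bcl2l1, Bid and Bik under each processing setting (y axis), filled where the adjusted p was under 0.05. The setting with a mean over probe sets shows that mean instead, and the setting without some probe sets shows the brightest one left. Variance trends, level filters, the minimum fold and the block cannot change the difference of a probe set. Bcl2l1 stays between -0.95 and -0.63 and loses its call in 6 of 16 alternatives, Bid stays between 0.49 and 0.89 and passes in 1, and Bik stays between 0.37 and 1.04 and passes in 0.

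The promoters of Bcl2l1, which was called, and of Bid, Mcl1 and Bcl2l11, which were not, are shown so that the contrast can be read beside their sequence. RefSeq promoters on GRCm38.p6 were found for 9 of the 10 genes, all but Bik, and the 250 bases before the most upstream start are printed 5′ to 3′ on the strand of the gene, with motif matches in capitals.
Bcl2l1, chr2:152831729-152831978, strand -: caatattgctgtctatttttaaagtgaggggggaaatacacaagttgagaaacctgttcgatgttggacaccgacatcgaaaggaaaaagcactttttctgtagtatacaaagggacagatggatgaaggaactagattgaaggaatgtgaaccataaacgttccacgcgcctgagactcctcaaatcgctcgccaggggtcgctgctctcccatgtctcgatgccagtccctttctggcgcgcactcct
Bid, chr6:120916825-120917074, strand -: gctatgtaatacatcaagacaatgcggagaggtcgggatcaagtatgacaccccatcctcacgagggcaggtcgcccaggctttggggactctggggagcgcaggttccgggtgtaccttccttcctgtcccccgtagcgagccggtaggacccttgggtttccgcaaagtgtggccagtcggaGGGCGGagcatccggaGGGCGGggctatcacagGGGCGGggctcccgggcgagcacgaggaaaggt
Mcl1, chr3:95658471-95658720, strand +: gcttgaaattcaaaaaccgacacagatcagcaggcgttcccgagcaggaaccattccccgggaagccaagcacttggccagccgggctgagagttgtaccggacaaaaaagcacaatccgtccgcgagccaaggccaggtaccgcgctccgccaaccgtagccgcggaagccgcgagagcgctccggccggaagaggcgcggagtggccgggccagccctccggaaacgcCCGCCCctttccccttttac
Bcl2l11, chr2:128125788-128126037, strand +: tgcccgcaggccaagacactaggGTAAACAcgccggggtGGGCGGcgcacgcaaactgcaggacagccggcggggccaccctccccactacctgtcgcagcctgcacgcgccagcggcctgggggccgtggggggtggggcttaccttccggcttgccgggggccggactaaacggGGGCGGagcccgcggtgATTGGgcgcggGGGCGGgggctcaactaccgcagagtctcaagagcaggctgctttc

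Motifs were searched on both strands as the STAT element TTCNNNGAA, the FOXO element GTAAACA, the E-box CACGTG, the cyclic AMP response element TGACGTCA, the C/EBP-ATF response element TGATGNAAT, the CCAAT box CCAAT and the GC box GGGCGG. The printed stretch of Bcl2l1 held none of the 7 and had 47.6% G and C, against 63.6% for Bid, 64.4% for Mcl1 and 72% for Bcl2l11. Bcl2l1 has 3 listed starts and Bcl2l11 has 2, and only the most upstream of each was searched. GC boxes were found 3 times in Bid and in Bcl2l11 and once in Mcl1, and 33% of 27025 promoters of this length held at least 1. Bcl2l11, a textbook target of FOXO factors, held 1 FOXO element, which 3.06% of promoters do, and 1 CCAAT box, which 34.5% do. The other shares were 7.14% for the STAT element, 6.04% for the E-box, 1.6% for the cyclic AMP response element and 0.825% for the C/EBP-ATF response element. A match or its lack describes these letters only. Foxo3, which encodes a FOXO factor, differed by -0.14 ± 0.15 on 1 of its 3 probe sets. Over all 3 the differences ran from -0.15 to 0.10, and none passed.

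Other genes of the family gave 1 call. Of 10 measured, 0 rose and 1 fell, with a median difference of 0.15, where 2.04% of all genes rose and 2.78% fell. The gene that fell was Pmaip1, which encodes NOXA, a BH3-only protein that binds MCL-1. It read 9.43 and 9.86 in low and 8.71 and 8.74 in high switching subclones, a difference of -0.92 ± 0.16 (limma adjusted p = 0.0413). Bbc3, which encodes PUMA, a BH3-only target of p53, read 8.57 and 8.68 against 8.93 and 9.50, all higher in high switching subclones, and did not pass (0.59 ± 0.20, limma adjusted p = 0.182). Bok, a relative of the pore formers, differed by -0.09 ± 0.11.

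Downstream, among 15 measured genes of mitochondrial release and caspase activation, 1 rose and 0 fell, where 2.04% of all genes rose and 2.78% fell, and the median difference was 0.14. Birc2, an inhibitor of apoptosis protein, rose from 9.20 and 9.50 to 10.31 and 10.59, by 1.10 ± 0.16 (limma adjusted p = 0.0253). Cycs, cytochrome c itself, differed by 0.31 to 0.43 on its 3 bright probe sets without passing (0.43 ± 0.11 on the brightest, limma adjusted p = 0.11). Its dim probe set 1445484_at, below the median probe set on every array, went the other way (-0.30 ± 0.11). Apaf1, the scaffold that cytochrome c assembles, differed by 0.14 ± 0.12 and Casp9, the caspase it activates, by 0.03 ± 0.10, on 1 probe set each. Differences ran from 0.14 to 0.29 over the 2 probe sets of Apaf1 and from -0.29 to 0.03 over the 3 of Casp9, and none passed.

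Upstream, among 22 measured regulators of BCL-2 family proteins, 2 rose and 1 fell, against the same 2.04% and 2.78% of all genes, and the median difference was -0.06. Ddit3, which encodes CHOP, a stress factor known to repress Bcl2 and induce Bcl2l11, rose from 8.31 and 8.25 to 9.62 and 9.87, by 1.47 ± 0.13 on 1417516_at (limma adjusted p = 0.00652). Its second probe set, 1443897_at, did not pass (0.70 ± 0.25, limma adjusted p = 0.203). Btrc, a ubiquitin ligase subunit, rose by 0.74 ± 0.14 on 1 of its 5 probe sets, and the others differed by -0.19 to 0.13. Ywhab, a 14-3-3 protein of the kind that holds BAD, fell by 0.67 on its brightest probe set, from 11.55 on both low switching arrays to 10.97 and 10.80, and was called on 3 of 6 probe sets. With any one array left out, which sets 1 array against 2, the calls of Pmaip1, Birc2, Btrc and Ywhab ended. The differences were then -1.14 to -0.71 for Pmaip1, 0.95 to 1.25 for Birc2, 0.59 to 0.89 for Btrc on 1425680_a_at and -0.75 to -0.58 for Ywhab on 1420880_a_at. That of Ddit3 held on 1417516_at. It ended with the hybridization control level as a block (limma adjusted p = 0.0539) and with a minimum fold of 1.5 (limma treat adjusted p = 0.0531). Both settings also ended the calls of Pmaip1, Birc2, Btrc and Ywhab. With 16 added to the intensity, those of Pmaip1 (limma adjusted p = 0.0668) and Btrc (limma adjusted p = 0.0592) ended. A variance trend ended that of Btrc (limma adjusted p = 0.0576).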

How the data were processed

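Each of 4 hybridoma subclones gave 1 Affymetrix array of biotin-labelled cRNA made from total RNA, per the labels. Deposited values are linear intensities, made by the authors with RMA (background correction, normalization between arrays and summary of probes), per the submitters' processing notes, which give no version. For dim probe sets RMA understates differences. The authors' genome build was not given in the sources used here.

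Intensities were taken to log2, 64 controls of 45101 probe sets were left out, and 45037 were fitted with no filter in limma 3.58.1 (lmFit and eBayes, two-sided, R 4.3.3), high minus low switching, adjusted by Benjamini-Hochberg. With 2 arrays a class an exact permutation p is at least 0.333, so calls rest on the variance limma shares across probe sets. The brightest probe set stood for a gene where counts are over genes. A GRCm38.p6 gene table gave the order of 18032 genes. The fit was run on simulated data drawn from the variances that limma estimated here. That checks the code and cannot show whether calls hold for these 4 arrays. Alternatives were variance trends, filters, normalizations, an offset of 16, a minimum fold of 1.5, other choices of probe sets, a block for the hybridization controls, subtraction of the median of neighbouring genes and leaving out each array.

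The family and the lists were chosen with earlier results of these data known. By rule, every member probe set, every list gene with a call and some fixed list genes are named. The neighbours of Bcl2l1 and Bid and the marker genes were named after their values were seen. Listed genes without a probe set of 1 symbol, among them Bax and Trp53, were not analysed here. Figures were drawn with matplotlib 3.10.9.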

Additional observations from a re-analysis of the deposited data

How the results depend on the processing

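Over all probe sets, 674 were called higher and 944 lower. The counts were 59 and 104 with a minimum fold of 1.5, 58 and 94 with the hybridization control level as a block, and 112 to 253 and 196 to 329 when 1 array was left out. The 3 family probe sets called lower became 2 with 16 added to the intensity (1426191_a_at, limma adjusted p = 0.0578), 1 without probe sets named _x_at, _s_at or _a_at, 0 with a minimum fold of 1.5, 0 with the block, and 0 to 0 when 1 array was left out. The count called higher was 1 with cyclic loess and 0 to 1 when 1 array was left out. The median of the death genes, 0.09, was 0.13 with quantile normalization again, 0.13 with cyclic loess, 0.12 without those probe sets, 0.15 after subtracting the median of neighbours, and 0.088 to 0.21 when 1 array was left out, and that of the survival genes was -0.26 to 0.0037. Sign changes were found for genes near 0. Bcl2 was -0.037 with the mean over its probe sets, Mcl1 was -0.12 and Bad 0.15 with neighbours subtracted, and leaving out 1 array gave -0.13 to 0.17 for Bak1, -0.066 to 0.14 for Bcl2, -0.15 to 0.040 for Bad and -0.066 to 0.14 for Bcl2l11. The cause was not tested, beyond the fewer arrays or probe sets that some alternatives use. No analysis paired by the labels was possible, because they give subclone names and no replicate numbers that the classes share. The block above sets 1 array of each class together by control level.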
